A study of Mus musculus with 2 samples.

Results

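The genes described here are 9 reporters of T cell receptor (TCR) signal strength, chosen by name from the 32285 genes of the series. They are the nuclear receptor genes Nr4a1, Nr4a2 and Nr4a3, the zinc finger genes Egr1, Egr2 and Egr3, the surface receptor genes Cd5 and Cd69, and the transcription factor gene Myb. All 9 were detected in both libraries. Their levels were followed across the states of splenic regulatory T cells (Tregs), the Foxp3-expressing CD4+ T cells that restrain other immune cells, in 7840 WT and 12790 KO barcodes. A barcode stands for 1 droplet and mostly for 1 cell.

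Binding of antigen to the TCR starts calcium and kinase signals that switch on immediate early genes, and stronger signals leave more of their products. Nr4a1 encodes Nur77, widely used as a reporter of antigen receptor signaling, and Nr4a2 and Nr4a3 encode its closest relatives. Egr1 follows the MAP kinase branch of the pathway, and its relatives Egr2 and Egr3 restrain T cell activation. Cd5 encodes an inhibitory coreceptor whose surface amount is tuned to the strength of self-recognition. Cd69 encodes an early activation receptor that holds cells in tissues, and Myb encodes a factor that Tregs use to become effector cells.

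Both libraries came from spleens of 7-day-old C57BL/6J mice and were sorted as YFP+7AAD- cells, that is, live cells that expressed the Foxp3 reporter. By the study's methods, WT mice were Foxp3-Cre mice and KO mice were Zfp335fl/flFoxp3-Cre mice, so both genotypes carried the Cre recombinase, fused to YFP and driven by the Foxp3 gene. Zfp335, a zinc finger protein gene, can therefore be lost in KO mice only from cells that have switched on Foxp3. There was 1 library per genotype and the labels do not give the number of mice in each, so no test between genotypes was possible and every interval, at the 95% level, covers counting error alone.

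Levels are given as CPM, a gene's UMIs among 1000000 UMIs of the same barcodes, where a UMI, or unique molecular identifier, marks 1 captured transcript molecule. Zfp335, the targeted gene, was at 8.17 CPM (7.37 to 9.03) over WT T-lineage barcodes and at 0.822 CPM (0.587 to 1.12) over those of KO. The kept WT barcodes were deeper, with a median of 5060 UMIs against 2725 in KO, and 44.6% of WT and 24.1% of KO barcodes exceeded the limit of 5% mitochondrial UMIs and were left out. The libraries shared 70 barcode sequences. T cell states were Leiden clusters built without the 9 genes and named from marker genes by a rule that was settled on with the data in view. The 7302 WT and 12046 KO T-lineage barcodes held a resting Treg-like state (2326 and 4767 barcodes), an effector Treg-like state (1638 and 61), an activated Treg-like state (510 and 1089), a cycling state (572 and 712), a state with effector and cycling genes (653 and 320) and unnamed clusters, of which cluster 8 (517 and 248) was led by the long noncoding RNAs Gm26917 and Lncpint and by Hexim1. Unnamed cluster 2 (160 and 4066 barcodes) was led by Mpo and globin genes, cluster 7 (873 and 56) by AY036118 and globin genes and cluster 9 (12 and 721) by neutrophil granule genes, so values over all T-lineage barcodes rest in part on barcodes that also held RNA of other lineages. Effector Treg-like KO values rest on only 61 barcodes. The resting state was checked against Foxp3, at 63.6 CPM in WT and 61.8 in KO, and Cd4, at 171 and 141 CPM. Red cell RNA was present among the T cells, with the hemoglobin gene Hbb-bs at 218 CPM in WT and 482 CPM in KO resting barcodes, and its part in the results was not tested. Erythroid-like barcodes (286 WT and 502 KO), which should lack TCR signaling, served as a rough background of free RNA. Summed TCR complex genes, Cd4 included, were at 953 CPM in these WT and 1689 CPM in these KO barcodes, so the background was not equal. Whether erythroid cells transcribe the 9 genes themselves was not tested.

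Promoter sequences of 4 members are shown because the Nr4a and Egr genes are induced through short DNA elements near their start sites, and because the 3 Nr4a genes differed from one another in the KO to WT comparison. They run 5′ to 3′ from RefSeq (GRCm38.p6), and capitals mark the cyclic AMP response element (CRE) core, TGACG or CGTCA on the other strand, and in Egr2 also the CArG box bound by serum response factor. The Nr4a1 stretch is chr15:101266596-101266845, plus strand, within an intron of the longer gene model. The Nr4a2 stretch is chr2:57124004-57124253, minus strand, and the Nr4a3 stretch is chr4:48045055-48045152, plus strand, both upstream of the gene. The Egr2 stretch is chr10:67537619-67537868, plus strand, within an intron of a longer gene model.
Nr4a1: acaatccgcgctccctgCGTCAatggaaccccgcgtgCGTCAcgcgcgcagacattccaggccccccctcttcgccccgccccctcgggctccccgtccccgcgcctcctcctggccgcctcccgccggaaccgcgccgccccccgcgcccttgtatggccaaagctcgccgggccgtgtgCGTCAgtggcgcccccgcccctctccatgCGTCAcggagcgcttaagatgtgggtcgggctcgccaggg
Nr4a2: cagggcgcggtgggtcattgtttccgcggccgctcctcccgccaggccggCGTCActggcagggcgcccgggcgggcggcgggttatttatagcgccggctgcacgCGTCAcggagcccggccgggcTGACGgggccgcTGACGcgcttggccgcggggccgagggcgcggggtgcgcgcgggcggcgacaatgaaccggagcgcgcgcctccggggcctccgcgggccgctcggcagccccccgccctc
Nr4a3: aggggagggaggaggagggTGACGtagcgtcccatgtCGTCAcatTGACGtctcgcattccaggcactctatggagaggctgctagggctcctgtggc
Egr2: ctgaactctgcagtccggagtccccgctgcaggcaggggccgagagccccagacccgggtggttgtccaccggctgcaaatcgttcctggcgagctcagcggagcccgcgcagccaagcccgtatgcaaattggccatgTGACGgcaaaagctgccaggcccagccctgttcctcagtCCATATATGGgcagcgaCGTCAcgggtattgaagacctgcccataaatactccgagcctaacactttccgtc
The Nr4a1 and Nr4a2 stretches each hold 4 CRE cores, the shorter Nr4a3 stretch 3, and the Egr2 stretch 2 cores beside 1 CArG box, while no CArG box lies in the Nr4a stretches. The Egr2 stretch was taken from those of 5 Egr2 windows that hold a CArG box, so its box is no finding. The Egr2 window that starts at chr10:67535249 holds neither a CArG box nor a CRE core. Over 32851 RefSeq promoters of 250 bases before to 50 bases after a start site, 20.8% hold a CRE core on either strand and 1.63% a CArG box. The full CRE (TGACGTCA, in 1.79% of promoters), the Egr site (GCGTGGGCG, in 0.612%) and the AP-1 site (TGACTCA, in 5.20%) were not found in any promoter window of Nr4a1, Nr4a2, Nr4a3, Egr2, Cd5 or Myb. These matches describe letters in the windows only.

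Nr4a1 (chr15:101254269-101274795) was at 63.1 CPM (58.4 to 68.1) in WT resting Treg-like barcodes, 47.5 (43.6 to 51.6) in effector, 45.0 (39.5 to 51.0) in activated and 28.1 (24.9 to 31.7) in cycling barcodes. In KO it was at 84.6 CPM (80.7 to 88.8) in resting, 51.5 (32.6 to 77.3) in effector, 60.9 (56.1 to 66.0) in activated and 65.9 (60.3 to 71.8) in cycling barcodes. Resting barcodes thus held more Nr4a1 per UMI than activated barcodes in both libraries, without overlap of the intervals. The highest levels were in cluster 8, whose barcodes were shallow (medians of 1397 UMIs in WT and 1252.5 in KO) and rich in ribosomal RNA-like transcripts (43469 and 19522 CPM), at 113 CPM (91.2 to 139) in WT and 126 (91.8 to 168) in KO. Erythroid-like barcodes had 11.4 CPM in WT and 21.8 in KO. Nr4a1 in every T cell state lay above the erythroid-like level of its library, least so in WT barcodes with effector and cycling genes, at 21.4 CPM (18.3 to 24.9).

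Nr4a2 (chr2:57106830-57124003) is induced by calcium signals like its relatives, but its order over the states was another. In WT it was at 8.05 CPM (6.42 to 9.96) in resting, 17.4 (15.1 to 19.98) in effector, 18.8 (15.4 to 22.9) in activated and 10.3 (8.36 to 12.5) in cycling barcodes. In KO it was at 8.09 CPM (6.90 to 9.43) in resting, 10.5 (8.59 to 12.8) in activated and 5.15 (3.68 to 7.01) in cycling barcodes, with 4 UMIs in the effector state. Resting levels were alike to within their intervals, whereas activated and cycling levels were lower in KO. Nr4a3 (chr4:48045153-48086447) was at 17.2 CPM (14.8 to 19.95) in WT resting, 16.8 (14.6 to 19.3) in effector, 23.3 (19.4 to 27.8) in activated and 8.32 (6.61 to 10.3) in cycling barcodes. In KO it was at 20.5 CPM (18.5 to 22.5) in resting, 18.8 (16.2 to 21.7) in activated and 16.7 (14.0 to 19.9) in cycling barcodes, with 3 UMIs in the effector state. Cluster 8 held 57.8 CPM of Nr4a3 in WT and 64.3 in KO, and in KO this did not overlap with any other class of at least 100 barcodes.

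Egr1 was at 202 CPM (194 to 211) in WT resting barcodes, 102 (95.9 to 107) in effector, 80.8 (73.4 to 88.8) in activated and 55.8 (51.2 to 60.7) in cycling barcodes. In KO it was at 127 CPM (122 to 132) in resting, 76.1 (52.7 to 106) in effector, 67.3 (62.3 to 72.7) in activated and 79.3 (73.1 to 85.8) in cycling barcodes. These 4 WT levels did not overlap with one another, and the KO resting level lay between the WT resting and effector levels. Cluster 8 again had the highest level, at 388 CPM (347 to 434) in WT and 350 (291 to 416) in KO. Erythroid-like barcodes had 33.4 CPM in WT and 30.9 in KO.

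Egr2 and Egr3, the Egr genes tied to restraint and tolerance, followed other orders. Egr2 (chr10:67535475-67542188) was at 13.3 CPM (11.2 to 15.7) in WT resting, 11.8 (9.96 to 14.0) in effector, 12.9 (10.0 to 16.3) in activated and 5.96 (4.52 to 7.70) in cycling barcodes. In KO it was at 6.90 CPM (5.80 to 8.15) in resting, 5.31 (3.97 to 6.97) in activated and 6.56 (4.89 to 8.63) in cycling barcodes, with 7 UMIs in the effector state. The WT resting, effector and activated levels of Egr2 overlapped, and all KO levels overlapped. Egr3 (chr14:70077203-70082614) was at 23.5 CPM (20.6 to 26.6) in WT resting, 30.5 (27.5 to 33.9) in effector, 26.9 (22.7 to 31.6) in activated and 14.2 (11.9 to 16.7) in cycling barcodes. In KO it was at 12.5 CPM (10.97 to 14.1) in resting, 9.30 (7.49 to 11.4) in activated and 8.75 (6.79 to 11.1) in cycling barcodes, with 6 UMIs in the effector state. Egr3 was thus the Egr gene with a higher level in WT effector than in WT resting barcodes.

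Cd5 (chr19:10717116-10739002) was at 451 CPM (438 to 464) in WT resting, 358 in effector, 320 in activated and 251 in cycling barcodes, and at 409 (400 to 418), 334, 286 and 303 CPM in the same states of KO. Cd69 (chr6:129267325-129275436) was at 408 CPM (396 to 420) in WT resting, 253 in effector, 174 (163 to 185) in activated and 177 in cycling barcodes. In KO, Cd69 was at 441 CPM (432 to 450) in resting, 206 in effector, 260 (250 to 271) in activated and 344 (331 to 357) in cycling barcodes. In both libraries Cd69 was lower in activated than in resting barcodes, and the activated level was lower in WT than in KO without overlap. Myb (chr10:21124935-21160984) was at 15.9 CPM in WT resting, 11.7 (9.81 to 13.8) in effector, 28.6 (24.2 to 33.5) in activated and 26.1 in cycling barcodes. KO levels of Myb were 17.1 CPM in resting, 22.4 (10.7 to 41.2) in effector, 28.1 (24.9 to 31.6) in activated and 23.9 in cycling barcodes. Unlike the other 8 genes, Myb was higher in erythroid-like than in resting barcodes, at 61.9 CPM (52.8 to 72.2) in WT and 34.2 (27.2 to 42.4) in KO, and the part of erythroid RNA in its level in T cell barcodes was not tested.

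**Figure D1:**
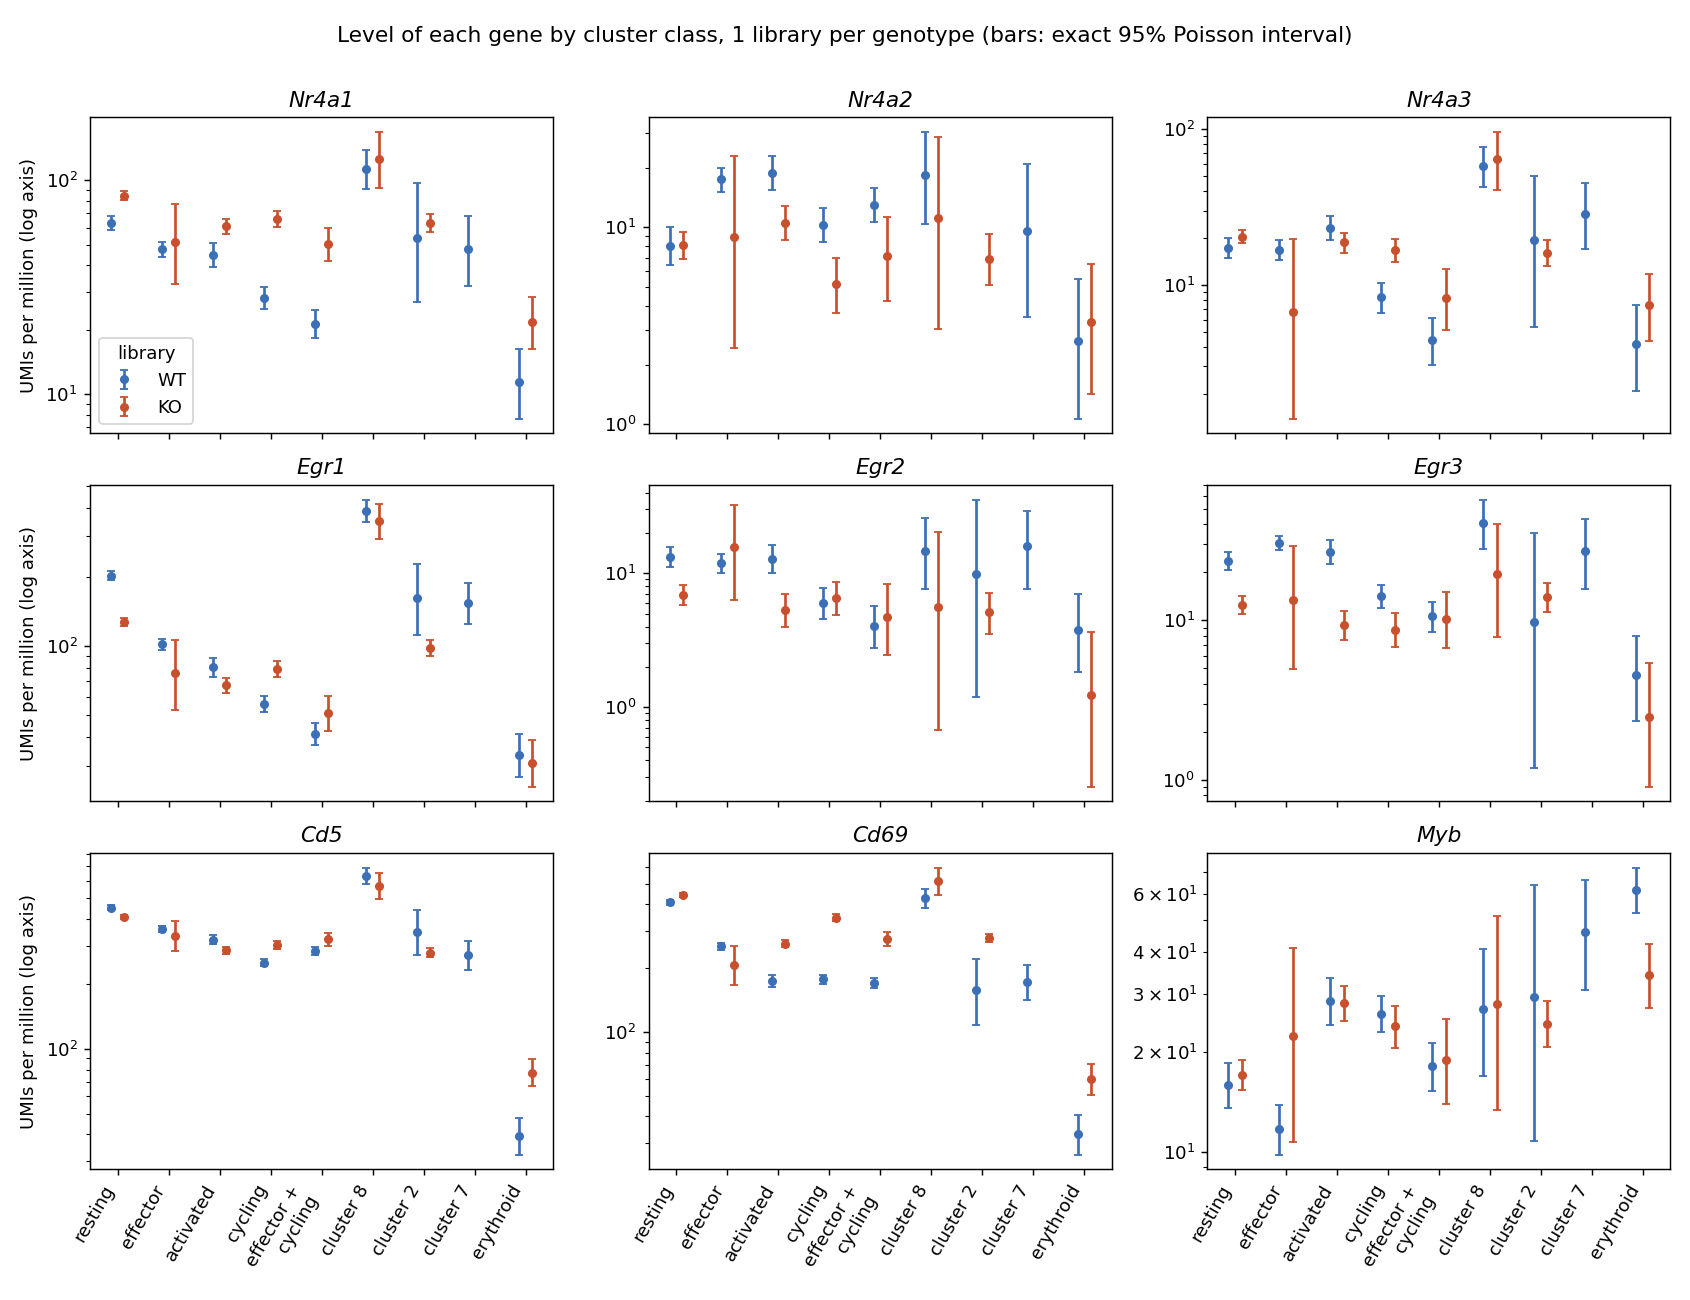
Level of each of the 9 genes (y axis, CPM, log scale) in 9 cluster classes (x axis) of the WT (blue) and KO (red) library. Points are UMI sums over the barcodes of a class, bars are exact 95% Poisson intervals, and points resting on fewer than 60 barcodes or on no UMI are left out. Egr1 in resting barcodes stands at 202 in WT and 127 in KO, while Nr4a1 stands at 63.1 and 84.6.

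The comparison of activated with resting barcodes asked whether the reporters were higher in an activated transcriptome. In WT, 2 of 9 members were more than 1.5-fold higher in activated than in resting barcodes, where 19.9% of 9555 genes were, and 2 were lower, where 22.7% were. Nr4a2 was 2.34-fold higher (1.74 to 3.17) and Myb 1.80-fold (1.43 to 2.25), whereas Egr1 stood at 0.400 of its resting level (0.359 to 0.443) and Cd69 at 0.426 (0.396 to 0.457). In KO, 1 member was higher (background 17.5% of 10249 genes) and 2 were lower (19.3%). Myb was 1.65-fold higher (1.40 to 1.93), Egr1 stood at 0.531 (0.487 to 0.579) and Cd69 at 0.591 (0.565 to 0.618), while Nr4a2 was 1.30-fold higher (1.01 to 1.67), short of the fold used. The median member log2 ratio was -0.05 in WT (Egr2, -0.49 to 0.38) and -0.42 in KO (Egr3, -0.78 to -0.07), beside -0.06 and -0.08 over all genes. The shares of members past the fold were thus near those of all genes.

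Activated barcodes had more UMIs, with a mean of 10508 in WT and 8988 in KO against 4488 and 4226 in resting barcodes. Counting per barcode multiplies the ratio of every gene in a library by the same factor, so the values on this scale describe the amount per droplet and set no member apart from other genes. Nr4a1 was 1.67-fold (1.43 to 1.94) higher per barcode in WT activated than resting barcodes and 1.53-fold (1.39 to 1.68) in KO, against 0.712 and 0.719 per UMI. Nr4a2 was 5.48-fold (4.06 to 7.41) higher per barcode in WT and 2.77-fold (2.14 to 3.56) in KO. Egr3 was 2.68-fold (2.17 to 3.31) and 1.59-fold (1.23 to 2.02) higher, and Myb 4.20-fold and 3.50-fold. Egr1 and Cd69 in WT stood at 0.935 (0.842 to 1.04) and 0.997 (0.928 to 1.07) per barcode, intervals that hold 1. In KO these genes stood at 1.13 (1.04 to 1.23) and 1.26 (1.20 to 1.31). Whether a droplet with more UMIs held more RNA or was captured better cannot be told apart here.

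**Figure D2:**
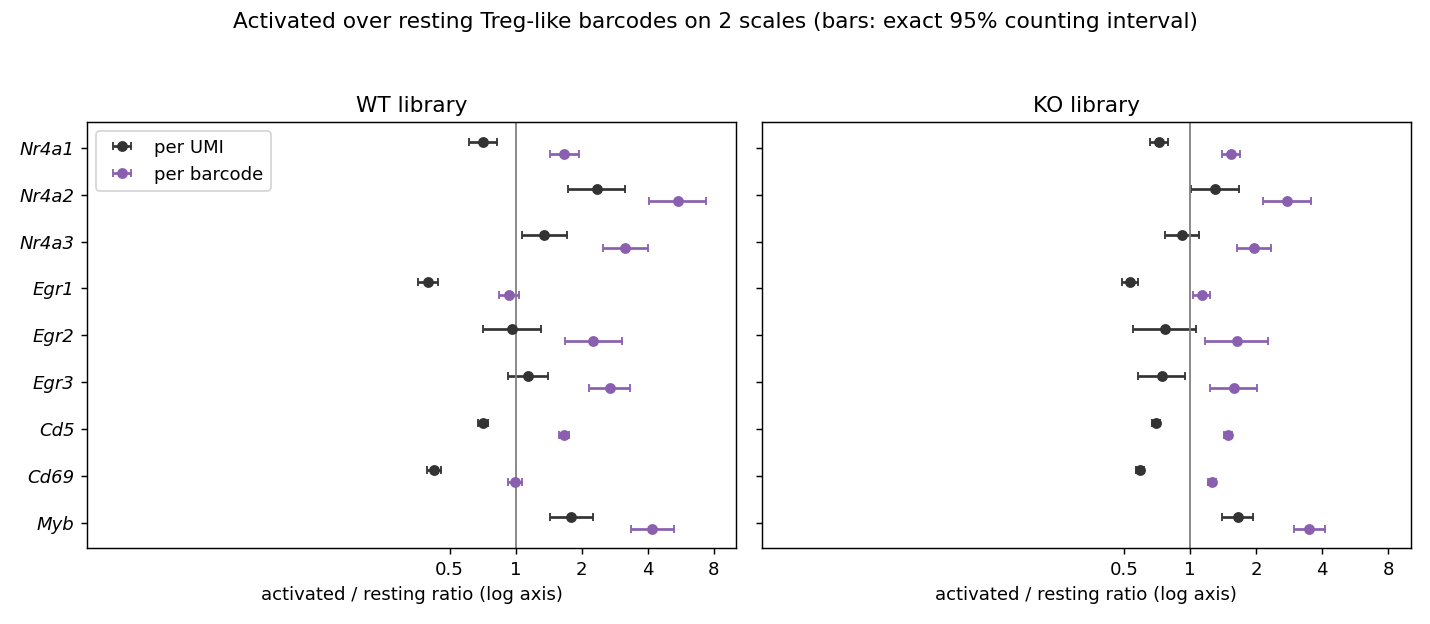
Activated over resting Treg-like ratio (x axis, log scale) of the 9 genes (y axis) in the WT (left) and KO (right) library, per UMI (black) and per barcode (purple), with exact 95% counting intervals. Per UMI, Nr4a1 lies at 0.712 in WT and 0.719 in KO, and per barcode at 1.67 and 1.53.

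Effector against resting barcodes could be compared in WT, where 1638 effector barcodes were found. There 1 member was more than 1.5-fold higher, where 8.72% of 10053 genes were, and 2 were lower, where 9.14% were. Nr4a2 was 2.17-fold higher (1.67 to 2.83), Egr1 stood at 0.502 (0.467 to 0.539) and Cd69 at 0.621 (0.592 to 0.651). Egr3 was 1.30-fold higher (1.10 to 1.54), within the fold used, and Nr4a3 at 0.977 (0.794 to 1.20) and Egr2 at 0.890 (0.699 to 1.13) did not differ beyond counting error. The median was Cd5, with a log2 ratio of -0.33 (-0.39 to -0.27) against -0.02 over all genes. Per barcode, Nr4a2 was 3.48-fold (2.69 to 4.54) and Egr3 2.09-fold (1.77 to 2.47) higher in effector barcodes.

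The KO to WT comparison set the libraries of the genotypes side by side, state by state. With 1 library each, an effect of the floxed Zfp335 allele cannot be told apart from a difference between libraries. In resting Treg-like barcodes the Egr genes were lower in KO and the Nr4a genes were not. Ribosomal RNA-like transcripts also differed there, at 14414 CPM in WT and 5396 in KO, and their part in these ratios was not tested. Egr1 stood at 0.627 of its WT level (0.591 to 0.664), Egr2 at 0.518 (0.407 to 0.660) and Egr3 at 0.531 (0.443 to 0.636). Nr4a1 was 1.34-fold higher (1.22 to 1.47), while the ratios of Nr4a2, at 1.01 (0.768 to 1.32), and Nr4a3, at 1.19 (0.993 to 1.42), had intervals that hold 1. Cd5 stood at 0.908 (0.876 to 0.941), Cd69 at 1.08 (1.04 to 1.12) and Myb at 1.07 (0.890 to 1.30). No member was more than 1.5-fold higher, where 2.64% of 10363 genes were, and 3 were more than 1.5-fold lower, where 10.7% were. Egr1 missed that fold when barcodes were drawn down to 1000 UMIs, at a log2 ratio of -0.52, and Egr3 missed it when the members were allowed among the variable genes, at -0.53. The median member was Nr4a2, with a log2 ratio of 0.01 (-0.38 to 0.41), against -0.09 over all genes.

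In activated Treg-like barcodes Egr2 stood at 0.413 (0.282 to 0.600) and Egr3 at 0.346 (0.263 to 0.453) of the WT level, and Egr1 at 0.833 (0.737 to 0.943). Nr4a1 was 1.35-fold higher (1.16 to 1.58), close to its ratio in the resting state. Nr4a2 was lower, at 0.558 (0.420 to 0.742), and Nr4a3 was at 0.806 (0.639 to 1.02). Cd69 was 1.499-fold higher (1.39 to 1.62), just under the fold used. None of the members was thus counted as higher (background 4.38% of 9250 genes) and 3 were lower (10.9%), with a median log2 ratio of -0.26 (Egr1, -0.44 to -0.08) against -0.08 over all genes.

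Cycling barcodes differed in the order of the genes. Nr4a1 was 2.34-fold higher in KO (2.02 to 2.72), Nr4a3 2.01-fold (1.51 to 2.69) and Cd69 1.94-fold (1.83 to 2.07). Nr4a2 stood at 0.501 (0.338 to 0.730) and Egr3 at 0.617 (0.455 to 0.831). Egr1, lower in resting KO barcodes, was 1.42-fold higher here (1.26 to 1.60), Cd5 was 1.21-fold higher (1.14 to 1.28), and Egr2 was at 1.10 (0.741 to 1.63). In all, 3 members were more than 1.5-fold higher, where 8.2% of 9394 genes were, and 2 were lower, where 8.35% were. The median log2 ratio was 0.28 (Cd5, 0.19 to 0.36), against 0.02 over all genes. Cycling WT barcodes were also deeper, with a mean of 17018 UMIs against 10916 in KO. The 10 alternatives run for this state included drawing barcodes down to 1000 UMIs. Over them the log2 ratio ranged from 1.06 to 1.26 for Nr4a1, 0.72 to 0.98 for Cd69, 0.30 to 0.57 for Egr1 and -1.80 to -0.63 for Egr3. The part of depth in these ratios was not tested beyond this. Barcodes with effector and cycling genes had the same directions for Nr4a1, at 2.36 (1.86 to 2.98), Nr4a2, at 0.548 (0.312 to 0.909), Nr4a3, at 1.88 (1.04 to 3.32), and Cd69, at 1.61 (1.47 to 1.76), whereas Egr3 was at 0.970 (0.599 to 1.52) there.

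**Figure D3:**
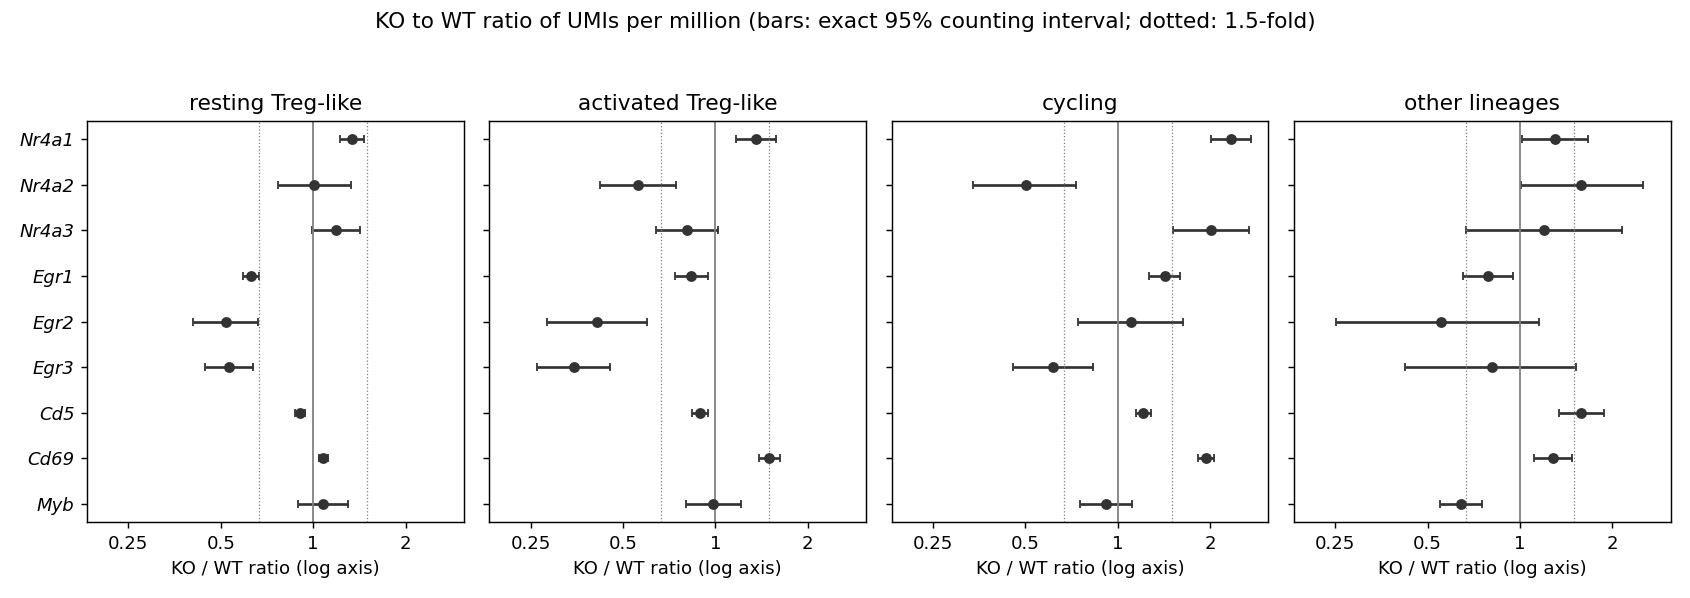
KO to WT ratio of CPM (x axis, log scale) for the 9 genes (y axis) in resting, activated and cycling T-lineage barcodes and in barcodes of other lineages, with exact 95% counting intervals, and dotted lines at 1.5-fold. The Egr genes lie left of 1 in the resting panel, from 0.518 to 0.627. Nr4a1 lies right of 1 in every panel, that of other lineages included, and from 1.34 to 2.34 in the first 3.

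In cluster 8, where Nr4a1, Nr4a3, Egr1 and Cd5 were at their highest, the KO to WT ratios of 8 members had intervals that hold 1. Egr1 was at 0.900 (0.725 to 1.11) and Nr4a1 at 1.11 (0.761 to 1.61), while Cd69, the exception, was at 1.21 (1.01 to 1.45). Only 5 members reached the number of UMIs required to count a gene as higher or lower. Nr4a2, Egr2, Egr3 and Myb did not. Egr2 was at 14.8 CPM in WT and 5.59 in KO, and Egr3 at 40.6 and 19.6. Nr4a2 was at 18.4 and 11.2 CPM, and Myb at 27.0 and 28.0. With so few UMIs, intervals that hold 1 do not show that the levels of these genes were alike. Over all T-lineage barcodes, where the mix of states differed between the libraries, Nr4a1 was 1.65-fold higher (1.56 to 1.74) and Cd69 1.41-fold (1.37 to 1.44), while Nr4a2 stood at 0.602 (0.528 to 0.685), Egr2 at 0.629 (0.542 to 0.729) and Egr3 at 0.522 (0.470 to 0.580). That is 1 member above 1.5-fold (background 6.19% of 12134 genes) and 3 below (12.4%). Cd5 had a ratio of 0.999 (0.978 to 1.02), and its log2 ratio of -0.00 (-0.03 to 0.03) was the median, against -0.07 over all genes. In barcodes of other lineages (538 WT and 744 KO), Nr4a1 was 1.30-fold higher in KO (1.02 to 1.67) and Egr1 at 0.788 (0.652 to 0.952), the directions seen in resting Tregs, and Cd5 was 1.58-fold higher (1.34 to 1.87). The share of these differences that comes from T cell RNA in those droplets was not tested.

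The resting state was also compared at equal depth, with each barcode drawn down to 3000 UMIs, which 1934 of 2326 WT and 3189 of 4767 KO barcodes allowed. Egr1 was then seen in 36.1% (33.9 to 38.3) of WT and 25.6% (24.1 to 27.1) of KO barcodes. Nr4a1 was seen in 15.0% (13.5 to 16.7) and 19.9% (18.6 to 21.4), and Egr3 in 4.65% (3.76 to 5.69) and 2.88% (2.33 to 3.53). The 3 genes kept their directions, in that fewer KO barcodes had Egr1 or Egr3 and more had Nr4a1. Positive barcodes differed too for the Egr genes, with 1.71 Egr1 UMIs per positive barcode in WT against 1.46 in KO, and 1.39 against 1.11 Egr3 UMIs. At least 3 Egr1 UMIs were found in 5.58% of WT and 2.41% of KO barcodes. Nr4a1 had 1.25 and 1.27 UMIs per positive barcode. For so scarce a gene a modest change in level shows mainly in the number of positive barcodes, so these values do not locate the difference. Cd69 was seen in 55.9% (53.6 to 58.1) of WT and 59.9% (58.2 to 61.6) of KO barcodes, and Cd5 in 69.8% (67.7 to 71.8) and 64.1% (62.4 to 65.8). Without drawing down, at medians of 4207.5 and 3769 UMIs, Egr1 was seen in 44.7% of WT and 31.6% of KO resting barcodes, and Nr4a1 in 20.4% and 24.6%.

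As background for these shares, all classes were drawn down to 1000 UMIs. Egr1 was then in 16.0% of WT and 11.8% of KO resting barcodes but in 5.04% and 4.95% of erythroid-like barcodes, whose 2 clusters had median depths of 4211 and 4462 UMIs in WT and 2179.5 and 2897 in KO. Nr4a1 was in 5.98% and 7.66% of resting barcodes and in 0.84% and 2.80% of erythroid-like barcodes. Both genes were thus seen more often in resting than in erythroid-like barcodes of the same library at the same depth.

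**Figure D4:**
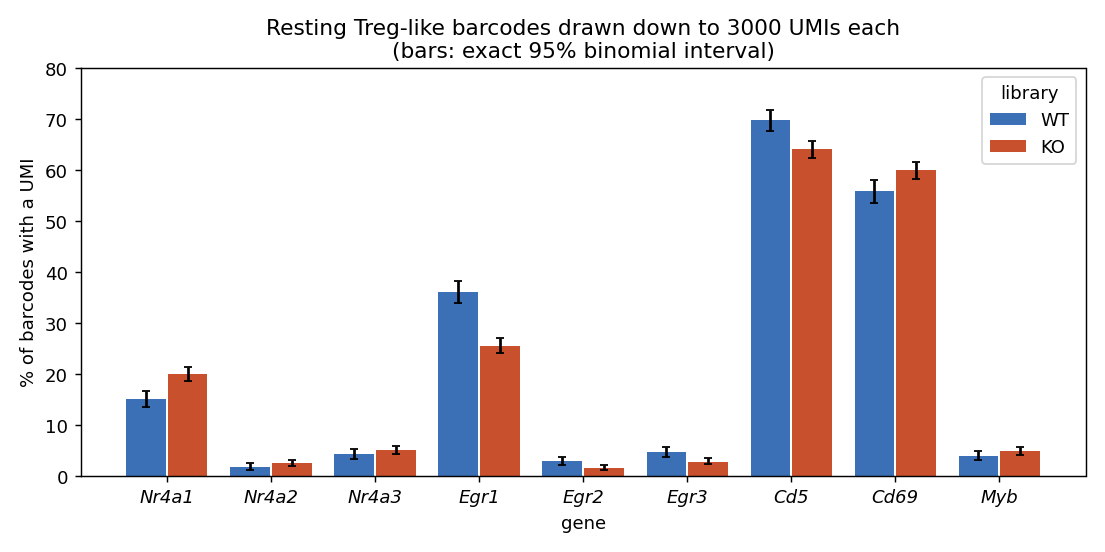
Share of resting Treg-like barcodes with at least 1 UMI of each gene (y axis, percent) in WT (blue) and KO (red), after each barcode was drawn down to 3000 UMIs, with exact 95% binomial intervals. Egr1 was seen in 36.1% of WT and 25.6% of KO barcodes, Nr4a1 in 15.0% and 19.9%.

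The balance of the families within the same barcodes does not depend on the total. For each UMI of the Nr4a genes there were 2.70 (2.51 to 2.92) UMIs of the Egr genes in WT resting barcodes and 1.29 (1.22 to 1.36) in KO. The ratio was 1.38 (1.23 to 1.56) against 0.908 (0.824 to 1.00) in activated and 1.62 (1.44 to 1.83) against 1.08 (0.970 to 1.20) in cycling barcodes. These are UMI counts of 3′ tags, not divided by transcript length, and only the difference between libraries is compared. In these 3 states the ratio was lower in KO without overlap, while in effector barcodes, at 1.76 (1.63 to 1.91) and 1.57 (0.970 to 2.57), the intervals overlapped. All T-lineage barcodes together gave 1.96 (1.88 to 2.04) for WT and 1.20 (1.16 to 1.25) for KO. The ratio rests mostly on 1 gene per family. In resting barcodes Egr1 made up 84.6% of Egr UMIs in WT and 86.7% in KO, and Nr4a1 71.4% and 74.8% of Nr4a UMIs. In cycling barcodes Egr1 was higher in KO, at 79.3 against 55.8 CPM, as was Nr4a1, at 65.9 against 28.1. The lower cycling ratio thus did not come with lower Egr1. Within the Nr4a family, Nr4a2 made up 21.6% of UMIs in WT and 11.7% in KO activated barcodes, and 22.0% and 5.87% in cycling barcodes. In resting barcodes these shares were 9.10% (7.32 to 11.1) and 7.15% (6.13 to 8.28), which overlap.

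**Figure D5:**
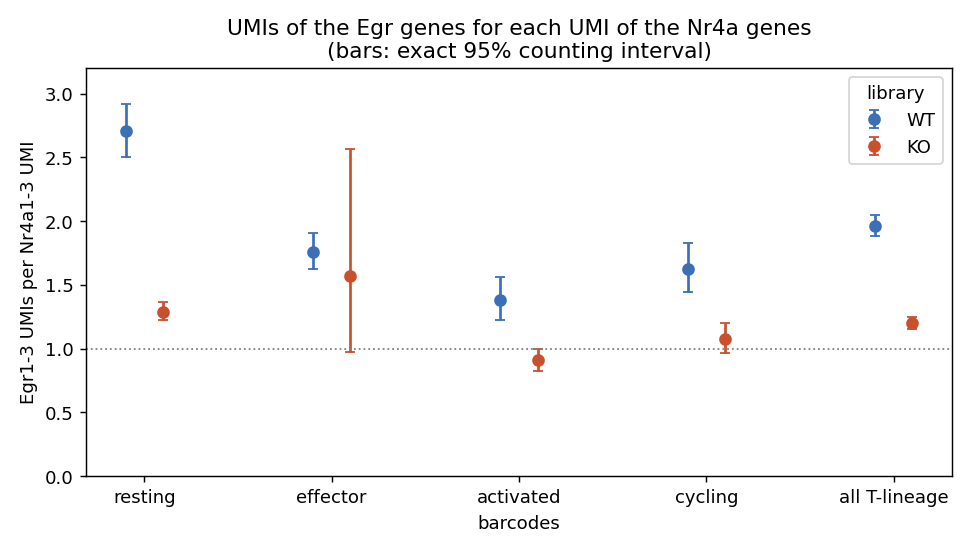
UMIs of Egr1, Egr2 and Egr3 for each UMI of Nr4a1, Nr4a2 and Nr4a3 (y axis) in 4 T cell states and over all T-lineage barcodes (x axis) of WT (blue) and KO (red), with exact 95% counting intervals and a dotted line at 1. Of the classes plotted, the resting state has the widest gap, 2.70 in WT against 1.29 in KO.

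Within resting barcodes at 3000 UMIs, some members were found more often among barcodes that held a given other member than among barcodes that did not. Egr3 was in 12.0% (8.52 to 16.3) of the 291 WT barcodes with Nr4a1 and in 3.35% (2.53 to 4.34) of those without it. In KO, Egr3 was in 5.50% (3.86 to 7.57) of the 636 barcodes with Nr4a1 and in 2.23% (1.70 to 2.88) of the others. Egr2 was in 16.7% (9.64 to 26.0) of the 90 WT barcodes with Egr3 against 2.28% (1.65 to 3.07) of the rest, and in 9.78% (4.57 to 17.8) of the 92 such KO barcodes against 1.42% (1.03 to 1.90). Cd69 was present in 60.8% (55.0 to 66.5) of WT barcodes with Nr4a1 and 55.0% (52.6 to 57.4) of those without, with overlapping intervals. These pairs are examples, and some other pairs were not found together more often. Egr1 was in 33.3% (18.6 to 51.0) of WT barcodes with Nr4a2 and 36.1% (34.0 to 38.4) of those without, and in 25.6% of both groups in KO. Barcodes of 1 library share preparation and depth, so these shares are a description of each library.

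Ly6c1, which was among the markers that named the resting state, sets apart cells with weaker self-recognition among naive T cells, and the resting barcodes were therefore split by its UMIs at 3000 UMIs. In KO, Cd5 was at 411 CPM (398 to 426) in the 2729 barcodes without a Ly6c1 UMI, 371 (336 to 408) in the 366 with 1 or 2, and 330 (266 to 404) in the 94 with 3 or more, a ratio of 1.25 (1.02 to 1.55) between the ends. Trac, the TCR alpha chain gene, had a like ratio in KO, 1.30 (1.07 to 1.60), and Cd5 in WT did not follow the order, at 455, 417 and 474 CPM with a ratio of 0.962 (0.659 to 1.46). Nr4a1 in KO was at 84.4 (78.2 to 90.9), 84.7 (68.4 to 104) and 92.2 CPM (60.2 to 135), and Egr1 at 123, 130 and 163 CPM, with ratios whose intervals hold 1 (0.619 to 1.41 and 0.560 to 1.03). In WT only 19 barcodes had 3 or more Ly6c1 UMIs, and there Cd69 was at 684 CPM (487 to 935) against 409 (392 to 427) in the 1736 without, and Trac at 614 (428 to 854) against 419 (402 to 437). Among barcodes without Ly6c1, Egr1 was at 202 CPM (190 to 215) in WT and 123 (115 to 131) in KO, and Nr4a1 at 59.7 (53.3 to 66.7) and 84.4 CPM. This group held 1736 of the 1934 WT and 2729 of the 3189 KO barcodes, so its levels had to lie near those of the whole resting state.

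The other genes of the pathway were read from lists, as counts beyond 1.5-fold, and genes named from counts of 5 or fewer were chosen after their values were seen. In resting barcodes, 2 of 21 TCR-induced genes with at least 50 UMIs were higher in KO, namely the stress and survival gene Gadd45b at 1.88 and Tagap at 1.67, and Pdcd1, the inhibitory receptor PD-1, was lower at 0.615, with a list median log2 ratio of 0.23. Of 7 Egr partners and Egr-linked restraint genes none was higher and the ubiquitin ligase gene Itch was lower at 0.638, with a median of -0.27. Of 12 negative regulators of TCR signaling 3 were lower, the adaptor genes Lax1 at 0.537 and Sla at 0.639 and the phosphatase gene Ptpn22 at 0.626, with a median of -0.19. These medians stand beside -0.09 over all genes, and the counts beside 2.64% higher and 10.7% lower over all genes, so that 1 lower gene of 7 or of 10 is near the background. The 8 TCR complex genes had a median of -0.02 with none beyond 1.5-fold. Single genes of this list ranged from Cd4 at 0.824 (0.777 to 0.875) to Cd247 at 1.20 (1.14 to 1.27). The 10 immediate early genes that tissue dissociation can also raise, such as Fos and Jun, had a median of 0.01. Among them 1 was lower, Fosb at 0.608. Within 1.5-fold, Jun stood at 0.821, Zfp36 at 0.911 and Hspa1a at 0.919, but Dusp1 at 1.42 and Hspa1b at 1.11. Fos, Junb and Ier2 were at 1.01 and Jund at 1.03. The summed level of this list was 3670 CPM in WT and 3602 CPM in KO resting barcodes. Jund was the largest term, at 1230 and 1265 CPM, so the sum can hide changes of single genes. The part of dissociation in the lower Egr1 of KO was not tested.

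Over all T-lineage barcodes, 4 of 22 TCR-induced genes were higher and 5 lower in KO, with a median of 0.14, where 6.19% of all genes were higher and 12.4% lower. The inhibitory receptor gene Tigit stood at 0.0415 of WT, on 7 KO UMIs, Pdcd1 at 0.340, the costimulatory receptor gene Icos at 0.395 and Nfatc1 at 0.521, while Gadd45b was at 1.85 and the phosphatase gene Dusp2 at 1.70. The mix of states differed, with 1638 WT and 61 KO effector barcodes, and its part in these ratios was not tested. In resting barcodes Pdcd1 was at 0.615, Icos at 0.785 and Nfatc1 at 0.707. In effector barcodes, with 61 in KO, 3 of the 22 genes were higher and none lower, with a median of 0.21 beside -0.03 over all genes. The share of all genes past the fold was not counted for that state, so this count is not read as a result. Over all T-lineage barcodes, 1 of 8 Egr partners and restraint genes was lower, Egr4 at 0.504 (median -0.38). None of 12 negative regulators was higher and 5 were lower, from Ubash3b at 0.474 to Ptpn22 at 0.625 (median -0.33). Of the Myb family, whose member Mybl2 was at 0.635 in resting barcodes, Mybl1 was at 1.82 and Mybl2 at 0.729. Of 4 Treg identity genes, Il2ra, the high-affinity receptor chain for interleukin-2, was higher at 1.52 and Ikzf2 lower at 0.614 (median 0.09). The 8 TCR complex genes again had none beyond 1.5-fold (median -0.12). Of 11 dissociation-linked immediate early genes 3 were higher, Atf3 at 2.23, Hspa1a at 1.86 and Dusp1 at 1.79, and none lower (median 0.38), with a summed level of 2364 CPM in WT and 2770 in KO. The same sums in cycling barcodes were 1658 CPM in WT and 2118 in KO, beside the higher Nr4a1, Nr4a3 and Egr1 in KO, and their part in those differences was not tested. Cluster 8 had the highest sums, 5412 and 5327 CPM. From resting to activated barcodes of WT, 11 of 21 TCR-induced genes were higher and 1 lower (median 0.71), beside 19.9% and 22.7% of all genes. In KO, 8 of the 21 were higher and none lower (median 0.45), beside 17.5% and 19.3%. Tnfrsf9, Tnfrsf4 and Myc of this list were also among the markers that named the activated state, so these genes are not independent of that name.

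Across 15 profiles of a library and a T cell state with at least 100 barcodes each, the genes whose log level ran closest to the mean of the 9 members, among 10151 genes, were Eif4g3 (Pearson's r 0.956), Dync2h1 (0.947), Cog5 (0.946), Huwe1 (0.946) and Dmxl1 (0.934). Among the members, Egr1 and Nr4a3 were most alike (r 0.89), followed by Nr4a1 and Nr4a3 (0.86), Egr1 and Cd5 (0.83), Nr4a1 and Cd69 (0.82) and Egr2 and Egr3 (0.81). Nr4a2 ran apart from Nr4a1 (-0.01), and Cd69 and Myb ran apart (-0.26). Profiles share their library and differ in depth, cluster 8 being shallow and high in most members, so these values describe the libraries only.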

How the data were processed

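Droplet single-cell RNA sequencing (10x Genomics) had been run on 1 WT and 1 KO library. The authors made the deposited UMI counts per gene and barcode with Cell Ranger 5.0.1 on mm10, and the counts were used unchanged. Barcodes under 300 genes or over 5% mitochondrial UMIs were dropped, which left 8053 WT and 13767 KO, and of all barcodes the 5% (WT) and 8% (KO) with the highest Scrublet scores (scanpy 1.11.5) were removed as likely doublets. The study's methods and its doublet counts give these percentages to the genotypes in opposite order, and the counts were followed. Leiden clustering (igraph 0.11.9, resolution 0.5) used 30 principal components of 2000 variable genes, from which 199 genes, the 9 members and all lists among them, were kept out.

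Clusters were named from marker genes by a rule set after the data had been seen. Names were rebuilt here, so they need not equal the study's subsets. UMIs were summed per library and state. Exact Poisson, conditional binomial and Clopper-Pearson 95% intervals (scipy 1.17.1) cover counting error only, and the ratio script was tested on simulated counts. With 1 library per genotype no test was run. A gene counted as higher or lower at 1.5-fold and at least 50 UMIs. The members and lists were chosen with earlier results of these data known. Named genes were the 9 members, up to 6 genes per list with the largest log2 KO to WT ratio in either direction over T-lineage barcodes, and the 5 genes with the profile most like the members' mean. Tagap, Fosb and other list genes named for resting barcodes were chosen after their values were seen. Promoters were found for 6 members. The list of genes that fall with TCR signaling is not reported here. Alternatives covered filters, doublets, scaling, depth and clustering.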

Additional observations from a re-analysis of the deposited data

Results flagged for a closer look

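The KO to WT ratio pointed in opposite directions in different T cell states for Egr1 and Cd5. Egr1 was at 0.627 of WT in resting and 0.833 in activated Treg-like barcodes but at 1.42 in cycling barcodes. Cd5 was at 0.908 in resting and 0.892 in activated barcodes but at 1.21 in cycling barcodes. None of the counting intervals of these ratios holds 1. The difference between states was not tested, since each genotype has 1 library.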

How the results depend on the processing

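Values are log2 ratios of the median member, and rebuilt clusters were matched to states by the barcodes they share. The KO to WT median in resting barcodes (0.01) and the activated to resting medians in WT and KO stayed within counting error under every alternative run. The KO to WT median over all T-lineage barcodes (-0.00) moved to -0.0346 with a mitochondrial limit of 10%, -0.15 with the mean of single-cell CPM, 0.0516 with totals without hemoglobin, mitochondrial and ribosomal genes, -0.18 with barcodes drawn down to 1000 UMIs, and 0.0442 without clusters carrying RNA of other lineages, an alternative chosen after seeing the data. The WT effector to resting median (-0.33) moved to -0.62 with a limit of 10%, -0.62 with no mitochondrial limit, -0.39 with the reduced totals, -0.23 at 1000 UMIs, -0.70 at resolution 0.3 and -0.0594 with the members allowed among the variable genes. The cause was not tested. Of 387 values of single members, 331 stayed within counting error, 55 moved and 1 reversed, Nr4a3 over all T-lineage barcodes at 1000 UMIs (-0.0434 against 0.33). Resting KO to WT ratios kept their sign under the 11 alternatives for Egr1 (-0.82 to -0.52), Egr2 (-1.09 to -0.78), Egr3 (-1.11 to -0.53) and Nr4a1 (0.35 to 0.57). Egr1 fell short of 1.5-fold at 1000 UMIs and Egr3 with the members among the variable genes. No paired analysis was possible because each genotype has 1 library, and for the same reason no replicate could be left out. Depth limits the scarcer genes, so that effector KO values of Nr4a2, Nr4a3, Egr2 and Egr3 rest on 3 to 7 UMIs.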
